A study of Mus musculus with 2 samples.

Results

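The collagen chain genes were taken as every gene whose symbol reads Col, a number, the letter a and a number, which gave 44 genes of the 32285 in the matrices. They were followed through the non-immune cells of hindlimb muscle from aged (24 months) female C57Bl/6J mice, measured by droplet-based single-cell RNA-Seq in 2 libraries. The ATRA+agonist library came from muscle that received 3 intramuscular injections of all-trans retinoic acid (ATRA), the RXRα agonist CD3254 and the RARγ agonist BMS961 over a week, and the DMSO vehicle library from muscle that received the solvent on the same schedule. No untreated or young muscle was among the samples. Per the study's methods, injections went into tibialis anterior, gastrocnemius and quadriceps, gastrocnemius and quadriceps cells were then digested and sorted with propidium iodide, and each library pooled 2 mice. There was therefore 1 library per group, no test between the groups could be made, and what differs between the mice, the digestions and the libraries cannot be told apart from the treatment. The comparison asks how the collagen RNA of aged muscle differed between muscle given retinoid receptor ligands and muscle given solvent.

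Collagens are proteins of 3 chains wound into a helix, and each chain is the product of its own gene. Fibrillar collagens (types I, II, III, V, XI, XXIV and XXVII) build the banded fibres that carry tension in tendon and in the connective tissue around muscle fibres. Type IV forms the sheet-like network of basement membranes, type VI forms beaded microfilaments between the basement membrane and the interstitium, and the fibril-associated collagens coat the surface of fibrils. Types VIII and X form short-chain networks, type VII forms anchoring fibrils, types XV and XVIII are basement membrane proteoglycans whose ends can be cleaved off, and types XIII, XVII, XXIII and XXV span the cell membrane. In muscle, fibro-adipogenic progenitors (FAPs, the PDGFRα-positive stromal cells) and tendon cells are known as the main makers of fibrillar collagen. Of the 44 genes, 11 code fibrillar chains, 6 type IV, 6 type VI, 9 fibril-associated, 3 network-forming, 2 multiplexin, 4 transmembrane and 1 anchoring chains, and 2 fall outside these groups.

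Quality filters kept 6907 ATRA+agonist cells and 6953 vehicle cells, with a median of 4701 and 4847 UMIs (unique molecular identifiers, 1 per captured RNA molecule) per cell. Cells were grouped without any collagen gene, and clusters were named from marker lists that held none. The earlier doublet scoring, which helped choose the kept cells, did not leave collagen genes out. This left 1297 and 1590 FAP-like cells, 164 and 502 tenocyte-like cells, 131 and 391 glial-like cells, 220 and 321 mural-like cells (pericytes and smooth muscle), 2454 and 2256 endothelial-like cells, and 414 and 530 muscle stem cell (MuSC)-like cells in the ATRA+agonist and the vehicle library. Each of the 14 FAP markers, 12 tenocyte markers, 12 endothelial markers and 12 MuSC markers reached 100 UMIs in its own class, as did 11 of 12 mural markers. Clusters were named from these lists, so this count does not test the names. A marker could also be shared: the FAP marker Ly6a had 16422 and 13923 UMIs in FAP-like and 12802 and 21241 in endothelial-like cells. The libraries differed in makeup. An endothelial-like cluster led by the interferon-induced genes Cd274 and Gbp4 held 81 cells of the ATRA+agonist library against 1020 of the vehicle library, and 228 cells rich in muscle fibre RNA came from the ATRA+agonist library alone. Only 9 barcodes among kept cells were shared between the libraries.

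Levels are given as UMIs per 1000000 UMIs of the class in that library (CPM), and a 3-prime UMI is 1 captured molecule, so levels of different genes were compared without division by length. Ratios are log2 of the ATRA+agonist CPM over the vehicle CPM, followed by the 95% interval that the counts allow; these intervals cover counting error only, and not the spread between mice. A gene was compared in a class where it had at least 100 UMIs over both libraries, and was counted as higher or lower where its level differed at least 1.5-fold. By this minimum, 37 of the 44 genes could be compared in at least 1 of the 6 classes, 3 in all 6 and 9 in 1 class. The other 7 (Col2a1, Col6a4, Col7a1, Col9a1, Col9a2, Col10a1 and Col17a1) stayed below it in every class, so a difference in them was not detectable at this depth.

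Collagen RNA was concentrated in FAP-like and tenocyte-like cells. Of the collagen UMIs of all named classes, FAP-like cells held 77.1% in the ATRA+agonist library and 66.1% in the vehicle library. Collagen genes made up 1.06% (1.06 to 1.07) of all UMIs of FAP-like cells in the ATRA+agonist library and 0.778% (0.774 to 0.783) in the vehicle library, a log2 ratio of 0.45 (0.44 to 0.46). In tenocyte-like cells the share was 1.13% (1.11 to 1.15) against 0.650% (0.641 to 0.659), a log2 ratio of 0.80 (0.77 to 0.83), and the widest gap among the 6 classes. Mural-like cells had 0.382% against 0.315% (log2 0.28, 0.21 to 0.35), and endothelial-like cells with 0.172% against 0.138% (log2 0.32, 0.28 to 0.35). Glial-like cells had 0.452% and 0.437%, and the interval of their log2 ratio of 0.05 (-0.01 to 0.11) included 0. MuSC-like cells were on the other side, with 0.226% against 0.242% and a log2 ratio of -0.10 (-0.14 to -0.06), which turned to 0.12 when every cell was thinned to 1000 UMIs. Immune-like cells, which should lack most collagens, had 0.00364% and 0.00460%, at least an order of magnitude below each of these 6 classes.

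**Figure D1:**
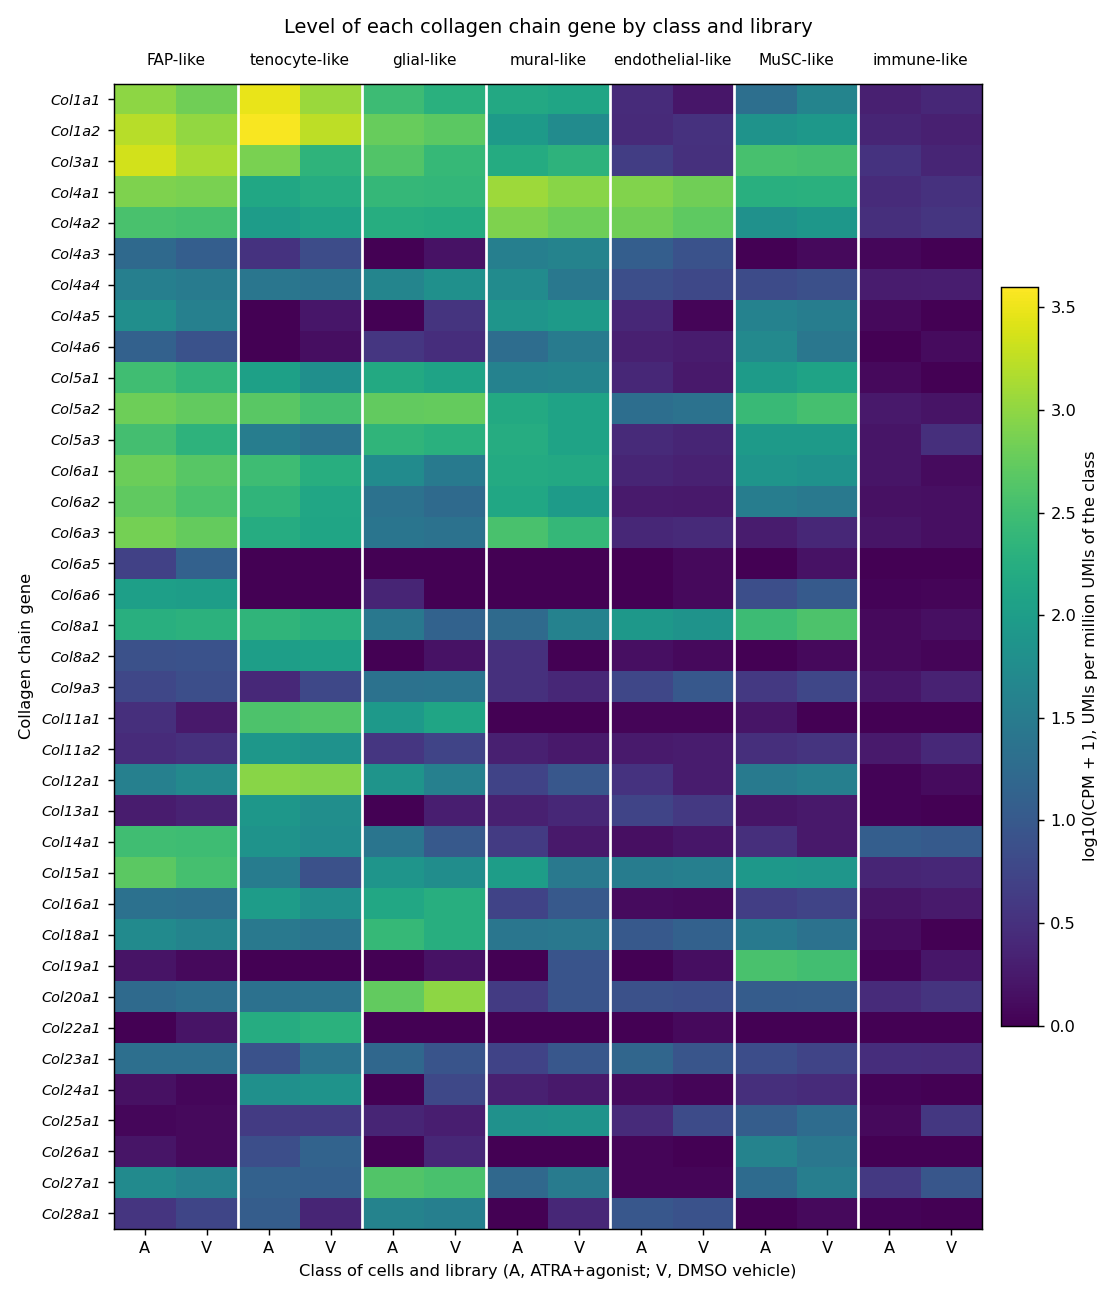
Level of the 37 collagen chain genes that reached 100 UMIs in at least 1 class, as log10(CPM + 1), in each class (column pairs) of the ATRA+agonist (A) and DMSO vehicle (V) library. The type I chains are brightest in FAP-like and tenocyte-like cells, Col3a1 in FAP-like cells, Col4a1 and Col4a2 in mural-like, endothelial-like and FAP-like cells, and the immune-like columns stay dark.

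The number of collagen genes past 1.5-fold was set beside all genes of the same class. In FAP-like cells, 5 of 28 collagen genes compared (17.9%) were higher and 1 was lower in the ATRA+agonist library, where 2.11% of 11511 genes were higher and 4.28% lower. In tenocyte-like cells, 7 of 22 (31.8%) were higher and 0 lower, against 3.85% and 7.13% of 6031 genes. Glial-like cells had 3 of 16 higher and 2 lower (background 4% and 6.86%), a count that fell to 0 without doublet removal, and mural-like cells 2 of 13 higher and 0 lower (3.83% and 6.59%). Endothelial-like cells had 2 of 10 higher and 1 lower (3.93% and 3.08%), and MuSC-like cells 2 of 20 higher and 3 lower (3.99% and 3.09%). The median log2 ratio of the collagen genes compared was 0.27 in FAP-like, 0.35 in tenocyte-like, 0.22 in glial-like, 0.32 in mural-like, 0.24 in endothelial-like and -0.03 in MuSC-like cells. Over all genes it lay between -0.02 in tenocyte-like and 0.07 in endothelial-like cells.

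**Figure D2:**
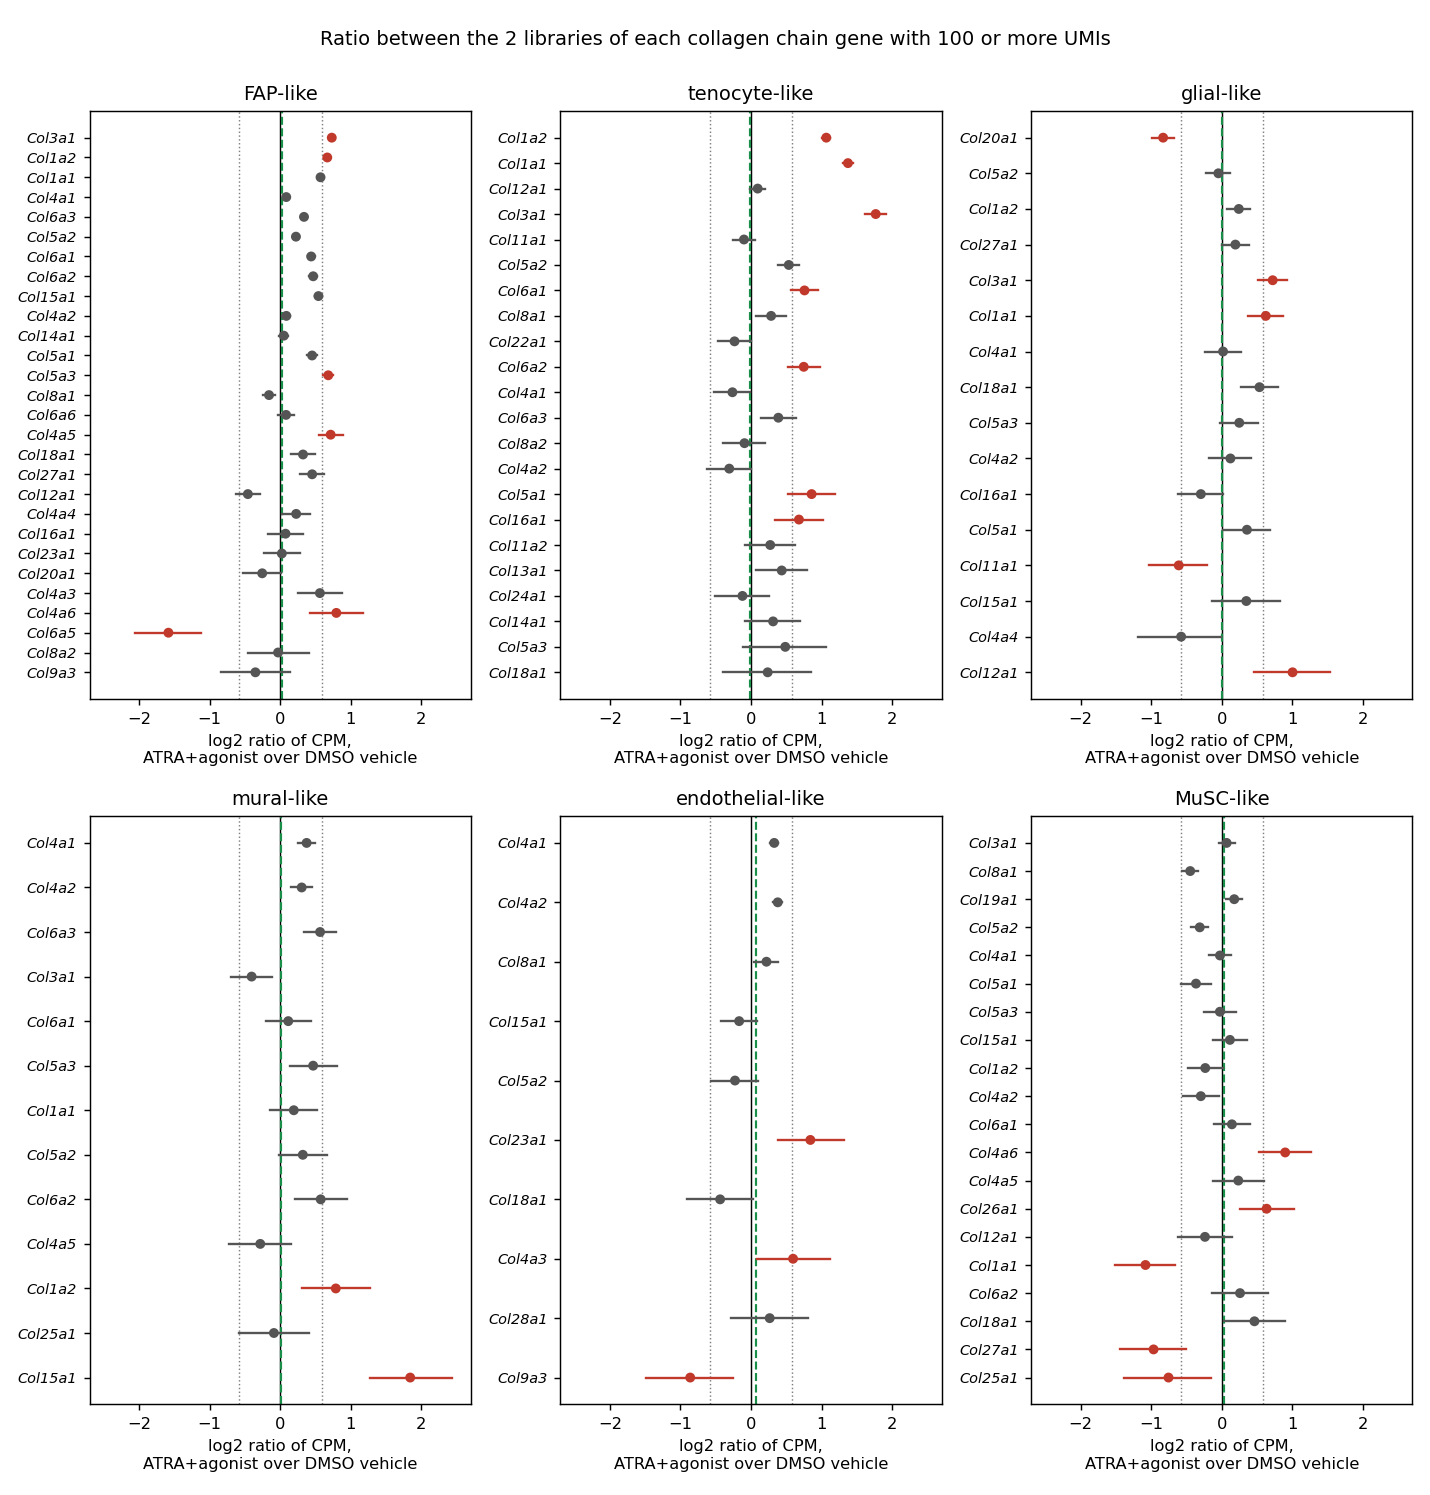
Log2 ratio of CPM, ATRA+agonist over DMSO vehicle, of each collagen gene with 100 or more UMIs in a class, ordered from the highest mean level at the top, with 95% counting intervals as bars. Dotted lines mark 1.5-fold, the dashed green line marks the median of all genes of the class, and red points are past 1.5-fold. The highest points sit to the right in FAP-like and tenocyte-like cells, while in MuSC-like cells points fall on both sides.

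The makeup of the collagen RNA by chain role separated the classes. Fibrillar chains made up 58.5% and 52.3% of the collagen UMIs of FAP-like cells in the ATRA+agonist and vehicle libraries, and 75.9% and 63.4% in tenocyte-like cells. Type IV chains made up 56.1% and 55.1% in mural-like cells and 88.1% and 85.9% in endothelial-like cells, where fibrillar chains were at 1.76% and 2.21%. Glial-like cells held 17.9% and 27.9% in fibril-associated chains, with 404 of 603 and 1929 of 2433 of these UMIs from Col20a1 and most others from Col16a1. This share alone did not set them apart, since MuSC-like cells had 18.2% and 15.5% in such chains. MuSC-like cells were set apart by network-forming chains (12.9% and 16.5%, nearly all Col8a1). In FAP-like cells the fibrillar group as a whole was higher with ATRA+agonist, at 6210.1 against 4072 CPM (log2 0.61, 0.59 to 0.62), and type IV was close in both, at 1283 and 1178 CPM (log2 0.12, 0.09 to 0.15). All 7 fibrillar genes compared in that class had an interval above 0. Counting intervals were narrow in FAP-like cells. The share of all genes with an interval above 0 is not given here, so this count was not read against a background. In tenocyte-like cells the fibrillar group stood at 8584 against 4120.1 CPM (log2 1.06, 1.02 to 1.10), the type IV group at 262 against 314 CPM (log2 -0.26, -0.45 to -0.08).

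**Figure D3:**
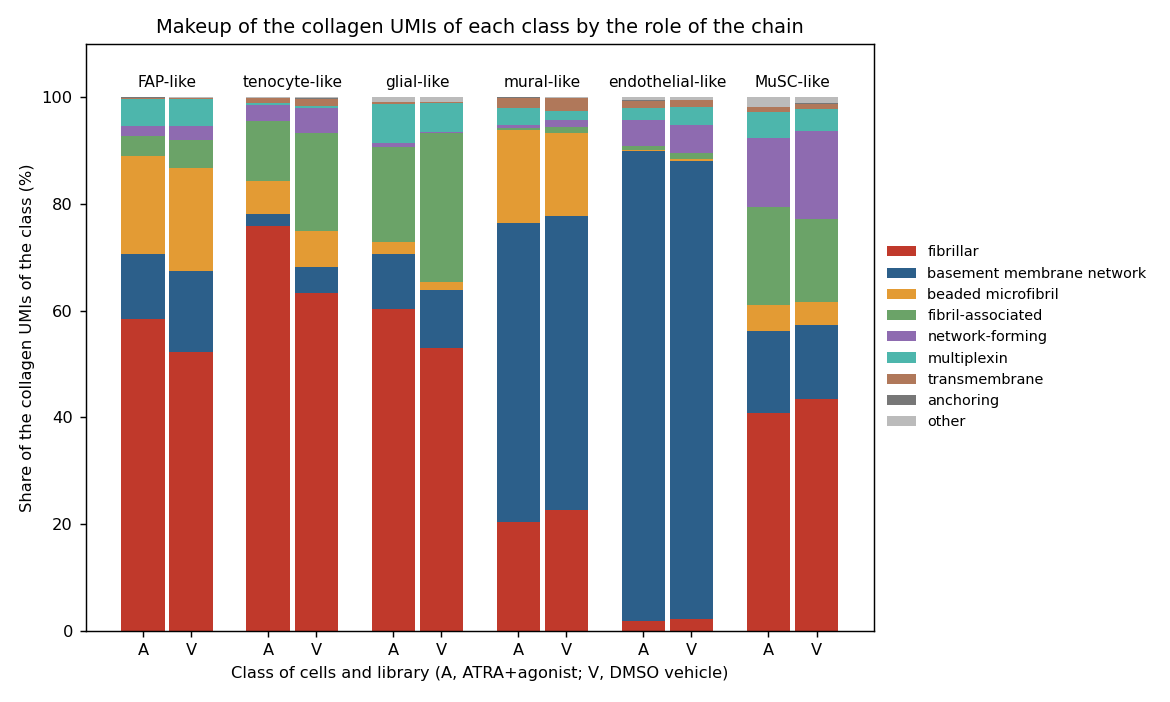
Share of the collagen UMIs of each class held by each role of chain, in percent, for the ATRA+agonist (A) and DMSO vehicle (V) library. Type IV chains fill most of the endothelial-like and mural-like bars, and fibrillar chains most of the FAP-like and tenocyte-like bars, where their part is larger in the ATRA+agonist library.

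Type I collagen (2 chains from Col1a1 and 1 from Col1a2) and type III collagen (3 chains from Col3a1) are the main fibre-forming collagens of connective tissue, and their RNA led the collagens of FAP-like cells. Col3a1 was at 2252 CPM in the ATRA+agonist library and 1358 in the vehicle library (log2 0.73, 0.70 to 0.76). Col1a2 was at 1640.1 and 1033 CPM (log2 0.67, 0.64 to 0.70). Col1a1 was at 979 and 659 CPM, just short of 1.5-fold (log2 0.57, 0.53 to 0.61). The gap was present in each of the 3 FAP-like clusters. It was widest in the cluster led by Sema3c and Pi16, the markers of a progenitor subset found in many tissues, where Col3a1 was at 2585 and 1318 CPM (log2 0.97, 0.91 to 1.04) and Col1a1 at 996 and 522 CPM (log2 0.93, 0.83 to 1.04). For Col3a1 it was 0.69 in the cluster led by Cxcl14 and Smoc2 and 0.60 in the cluster led by Gdf10 and Sfrp4. More FAP-like cells also held the RNA at equal depth: thinned to 1000 UMIs per cell, 75.6% of ATRA+agonist and 49.1% of vehicle FAP-like cells had a Col3a1 UMI, against 0.257% and 0.260% of immune-like cells. Without thinning the shares of FAP-like cells were 97.8% and 84.3%, at median depths of 9902 and 8017 UMIs.

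Tenocyte-like cells had the highest type I level and a wider gap. Col1a2 was at 3672 CPM in the ATRA+agonist and 1754 in the vehicle library (log2 1.07, 1.01 to 1.12). Col1a1 was at 2985 and 1153 CPM (log2 1.37, 1.31 to 1.44). Col3a1, which tendon cells make less of, was at 746 and 219 CPM (log2 1.77, 1.62 to 1.91). These UMIs were unevenly spread over cells: the 10 cells with the most held 50% of the Col1a1 UMIs and 72.4% of the Col3a1 UMIs of the 164 ATRA+agonist tenocyte-like cells, against 24.1% and 51.2% of those of the 502 vehicle cells. Without the 10 cells of each library with the most collagen UMIs, the log2 ratio was 0.89 for Col1a1, 0.79 for Col1a2 and 1.29 for Col3a1, and when each cell was classed from its own markers that of Col3a1 was 1.05. FAP markers were mostly higher there as well. Their summed level in tenocyte-like cells was 25232 against 19555 CPM, with 11 of 14 markers higher in the ATRA+agonist library and none at 0. Dcn alone was at 17086 and 13404 CPM of this sum, beside 15495 and 14824 CPM in FAP-like cells. Pi16 was at 83.7 and 14.9 CPM and Mfap5 at 350.02 and 146 CPM. Pdgfra (27.1 and 30.8 CPM), Lum (109 and 130 CPM) and Smoc2 (79.7 and 85.0 CPM) were lower. Tendon markers summed to 20441 and 18436 CPM, with 10 of 12 higher in the ATRA+agonist library, such as Tnmd at 1237 and 689 CPM, while Mkx (297 and 372 CPM) and Thbs4 (7569.7 and 7701 CPM) were lower. The part of FAP-marker RNA in the collagen gap of tenocyte-like cells was not tested.

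In the other 4 classes both type I genes were lower than in FAP-like and tenocyte-like cells, and Col3a1 was lower than in FAP-like cells. In glial-like cells Col3a1 was at 419 and 254 CPM (log2 0.72, 0.51 to 0.93) and Col1a1 at 297 and 193 CPM (log2 0.62, 0.38 to 0.86). Most Col1a1 UMIs lay in the larger of the 2 glial-like clusters, where it was at 432 and 373 CPM, against 68.5 and 35.6 CPM in the smaller cluster, led by Csmd3. The larger cluster held 85 of 131 ATRA+agonist glial-like cells but 209 of 391 vehicle ones, and with both clusters given the same weight in each library the log2 ratio of Col1a1 was 0.28 and that of Col3a1 0.43, below 1.5-fold. Without doublet removal these ratios were 0.24 and 0.30. Mural-like cells had Col1a2 at 91.8 and 53.2 CPM (log2 0.79, 0.31 to 1.27), on 84 and 69 UMIs. This fell below 1.5-fold without doublet removal (0.49) and without the hemoglobin filter (0.45). Their Col3a1 was at 161 and 213 CPM (log2 -0.41, -0.70 to -0.11), but the sign differed by cell type: it was 140.5 against 91.7 CPM in pericyte-like cells (log2 0.61, 0.19 to 1.04) and 289 against 516 CPM in smooth muscle-like cells (log2 -0.84, -1.39 to -0.32). Thinned to 1000 UMIs per cell, the ratio over mural-like cells turned to 0.54. MuSC-like cells had Col3a1 at 354 and 338 CPM (log2 0.07, -0.05 to 0.18). Their Col1a1 was at 19.5 and 41.2 CPM (log2 -1.08, -1.52 to -0.66), and 10 cells held 82.2% of the Col1a1 UMIs of the vehicle cells and 73.8% of those of the ATRA+agonist cells. In endothelial-like cells Col1a1, Col1a2 and Col3a1 lay between 0.634 and 3.44 CPM, close to the 1.05 to 2.33 CPM of immune-like cells, and were read as background.

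The starts of Col1a2 and Col3a1, whose RNA was higher with ATRA+agonist in both FAP-like and tenocyte-like cells, are shown with the promoter motifs found in them (RefSeq, GRCm38.p6, plus strand, 250 bases before to 50 after the annotated start). Capitals mark the CCAAT box, the GC box with letters GGGCGG, the TATA box with letters TATAAA, and the retinoid receptor half-site with letters AGGTCA, each also as its reverse complement, so that both strands were searched; these motifs share no letters in either window. The Col1a2 window, chr6:4505368-4505667, held 2 CCAAT and 2 GC boxes and 0 TATAAA, and the Col3a1 window, chr1:45311288-45311587, held 1 TATAAA and 0 of the others. Neither held AGGTCA. A motif match is a description of the letters and not a bound site. Of 27025 promoter windows of this length, 37.9% held CCAAT, 35.9% a GC box, 14.2% TATAAA and 16.04% AGGTCA. Among the 35 collagen genes with a window, 12 held CCAAT, 22 a GC box (62.9%), 5 TATAAA and 8 AGGTCA (22.9%).
Col1a2: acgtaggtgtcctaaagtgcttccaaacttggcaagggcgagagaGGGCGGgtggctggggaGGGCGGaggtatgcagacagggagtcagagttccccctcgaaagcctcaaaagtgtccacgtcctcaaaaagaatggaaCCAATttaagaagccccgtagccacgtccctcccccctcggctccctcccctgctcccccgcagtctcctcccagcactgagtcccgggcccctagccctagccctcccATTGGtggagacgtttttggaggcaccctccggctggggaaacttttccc
Col3a1: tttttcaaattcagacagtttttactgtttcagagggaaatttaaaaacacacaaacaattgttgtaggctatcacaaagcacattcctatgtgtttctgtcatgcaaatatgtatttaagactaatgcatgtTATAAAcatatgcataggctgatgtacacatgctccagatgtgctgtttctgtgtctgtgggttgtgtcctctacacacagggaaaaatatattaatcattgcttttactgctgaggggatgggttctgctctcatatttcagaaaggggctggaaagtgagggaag

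Type V and XI chains are minor parts of fibrils that set their diameter. In FAP-like cells Col5a3 was at 337 and 210 CPM (log2 0.68, 0.61 to 0.75), past 1.5-fold. Its partners were closer, with Col5a1 at 317 and 232 CPM (log2 0.45) and Col5a2 at 629 and 539 CPM (log2 0.22). Col5a1 was also higher in tenocyte-like cells, at 109 and 60.3 CPM (log2 0.86, 0.53 to 1.19), and lower in MuSC-like cells, at 94.3 and 122 CPM (log2 -0.37, -0.58 to -0.16). Col5a2 in MuSC-like cells was at 274 and 340 CPM (log2 -0.31, -0.44 to -0.19), and in glial-like cells, which held about as much of it as FAP-like cells, at 537 and 556 CPM. Col11a1, the type XI chain known from cartilage and tendon, was at 395 and 424 CPM in tenocyte-like cells (log2 -0.10, -0.25 to 0.05), an interval that included 0 where those of type I and III chains did not. In glial-like cells Col11a1 was at 84.6 and 129 CPM (log2 -0.61, -1.03 to -0.21); tendon markers there summed to 5.37 and 117 CPM, with Cilp2, Ptx4 and Wif1 at 0 in both libraries, and their part was not tested. Within the Csmd3-led glial-like cluster Col11a1 was at 195 and 184 CPM, and within the larger glial-like cluster at 19.3 and 66.7 CPM. The smaller cluster held a larger share of the vehicle cells, and with both clusters weighted the same the log2 ratio of Col11a1 was -0.28, below 1.5-fold. Col11a2 and Col24a1 were high in tenocyte-like cells, with Col11a2 at 80.5 and 66.7 CPM and Col24a1 at 63.8 and 69.4 CPM. Their mean levels were 20.5 and 26.6 times those of the next class, glial-like cells. Col27a1, a fibrillar chain of cartilage, was highest in glial-like cells at 424 and 372 CPM, 8.89 times the mean level of FAP-like cells. In MuSC-like cells it was at 17.1 and 33.4 CPM (log2 -0.97, -1.44 to -0.51), which turned to 0.59 after thinning, and immune-like cells had 3.01 and 8.12 CPM.

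Type IV RNA was carried by Col4a1 and Col4a2, the chains of the basement membrane network found around every muscle fibre and vessel. Mural-like cells had the highest level, with Col4a1 at 1174 and 906 CPM (log2 0.37, 0.25 to 0.49) and Col4a2 at 788 and 638 CPM (log2 0.30, 0.16 to 0.45). The part of each mural cell type was uneven: Col4a1 was at 1215 and 1040.1 CPM in pericyte-like cells (log2 0.22, 0.09 to 0.35) and at 915 and 570.1 CPM in the 36 and 79 smooth muscle-like cells (log2 0.68, 0.34 to 1.02). FAP-like cells had Col4a1 at 793 and 747 CPM (log2 0.09, 0.05 to 0.12) and Col4a2 at 369 and 347 CPM (log2 0.09, 0.03 to 0.14), so the network chains were nearly level in the class where type I and III chains were not. Tenocyte-like cells had less in the ATRA+agonist library, with Col4a1 at 139 and 167 CPM (log2 -0.26, -0.52 to -0.01). MuSC-like cells had Col4a1 at 187 and 191 CPM (log2 -0.03, -0.18 to 0.13).

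In endothelial-like cells the type IV gap changed with the clusters included. Col4a1 was at 831 and 662 CPM over the class (log2 0.33, 0.27 to 0.38) and Col4a2 at 667 and 513 CPM (log2 0.38, 0.32 to 0.44). In the cluster led by the capillary genes Aqp1 and Kdr, which held 1600 ATRA+agonist and 713 vehicle cells, Col4a1 was at 929 and 976 CPM (log2 -0.07, -0.14 to -0.00) and Col4a2 at 749.8 and 763 CPM (log2 -0.03, -0.10 to 0.05). In the Cd274-led cluster, Col4a1 was at 832 CPM in 81 ATRA+agonist cells and 562 CPM in 1020 vehicle cells (log2 0.57, 0.38 to 0.75). Without that cluster the log2 ratio over the class was 0.12 for Col4a1 and 0.18 for Col4a2, and with all clusters given the same weight in both libraries it was 0.11 for each. The cluster led by the arterial gene Sema3g had lower levels, with Col4a1 at 327 and 303 CPM.

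**Figure D4:**
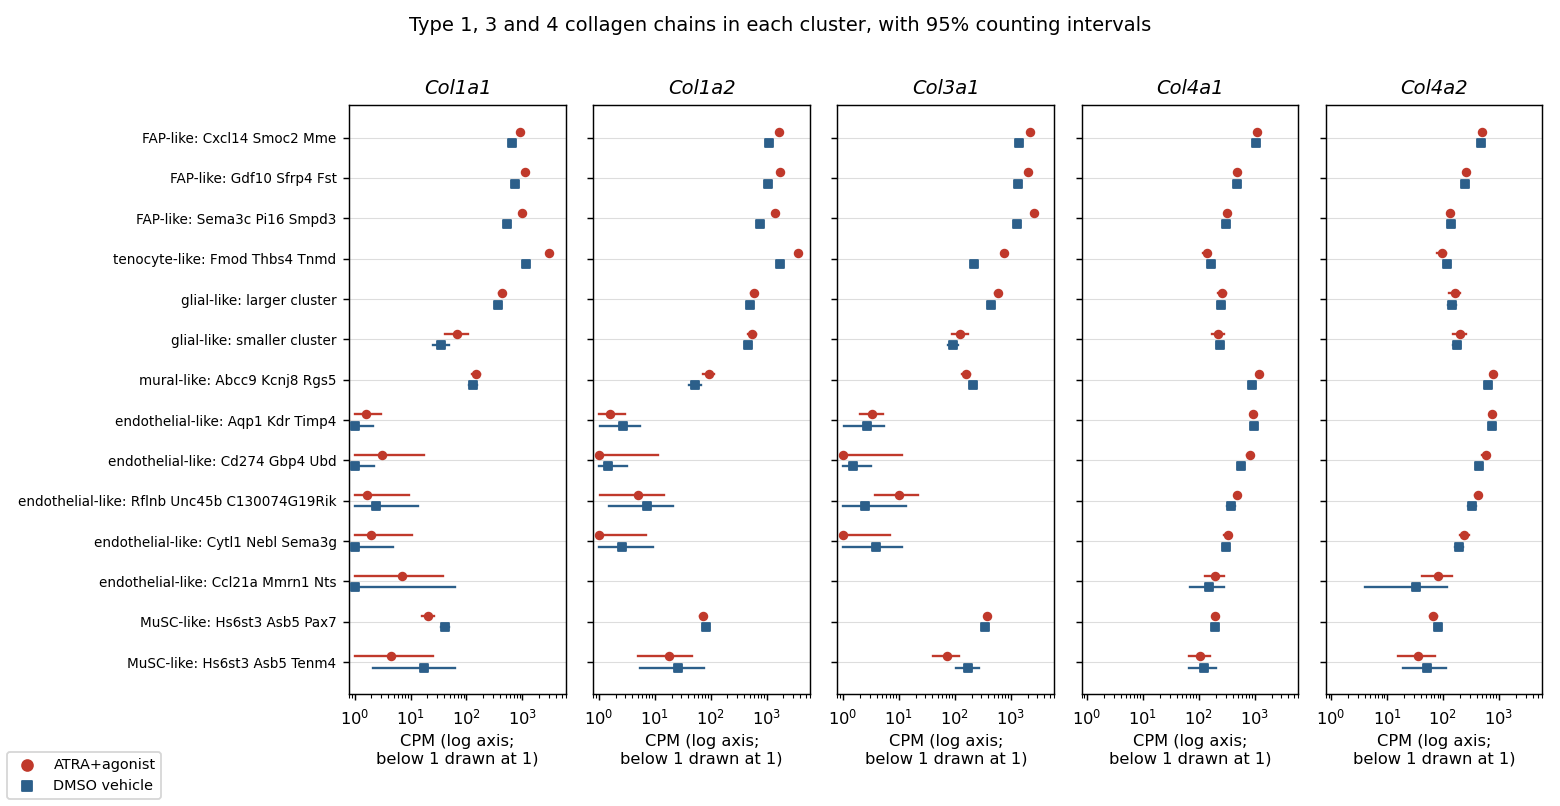
Levels (CPM, log axis) of Col1a1, Col1a2, Col3a1, Col4a1 and Col4a2 in each cluster of the 6 classes, with red circles for the ATRA+agonist and blue squares for the DMSO vehicle library and 95% counting intervals as bars. Each row is a cluster named by its class and its 3 leading genes, except the glial-like clusters, named by size, values below 1 CPM are drawn at 1, and a cluster with 0 UMIs of a gene in both libraries has no point. Red lies to the right of blue for Col1a1, Col1a2 and Col3a1 in the FAP-like and tenocyte-like rows, while the points of Col4a1 and Col4a2 nearly meet in the FAP-like rows and in the Aqp1-led endothelial-like row.

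The type IV genes lie in head-to-head pairs. The shared start of Col4a1 and Col4a2 on chromosome 8 is shown because the ratios of both genes were close in FAP-like, tenocyte-like, mural-like and endothelial-like cells (RefSeq, GRCm38.p6). In MuSC-like cells the ratios were further apart, with Col4a1 on 625 and 754 UMIs and Col4a2 on 217 and 316. Their annotated starts are 21 bases apart on opposite strands, and the windows of both genes share 78 bases, from 11312777 to 11312854. The Col4a2 window, chr8:11312555-11312854 on the plus strand, held 1 CCAAT and 3 GC boxes, in capitals, and 0 TATAAA or AGGTCA.
Col4a2: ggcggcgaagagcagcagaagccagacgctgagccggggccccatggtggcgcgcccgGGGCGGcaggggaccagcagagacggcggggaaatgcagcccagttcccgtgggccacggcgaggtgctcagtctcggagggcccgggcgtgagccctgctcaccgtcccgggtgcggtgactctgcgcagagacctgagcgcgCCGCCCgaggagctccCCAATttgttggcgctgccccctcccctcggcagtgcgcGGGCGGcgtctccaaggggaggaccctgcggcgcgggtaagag

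The ratio of Col4a1 to Col4a2 UMIs spread further between classes than between libraries. It was 2.15 (2.08 to 2.22) in ATRA+agonist FAP-like cells and 2.15 (2.08 to 2.23) in vehicle ones, 1.25 and 1.29 in endothelial-like cells, 1.49 and 1.42 in mural-like cells, and 2.88 and 2.39 in MuSC-like cells. In endothelial-like cells the intervals of both libraries (1.1997 to 1.29 and 1.24 to 1.34) lay below those of FAP-like cells. The other pairs were rarer. Col4a3 and Col4a4, whose chains are known from the kidney filter and start 72 bases apart on chromosome 1, were at 16.2 and 10.95 CPM and at 35.1 and 29.98 CPM in FAP-like cells. Col4a3 in endothelial-like cells was at 10.7 and 7.10 CPM (log2 0.60, 0.08 to 1.12), past 1.5-fold over the class but at 0.036 with clusters weighted the same, and at 12.99 and 11.4 CPM within the Aqp1-led cluster. Col4a5 and Col4a6, which start 1309 bases apart on chromosome X, were both higher in ATRA+agonist FAP-like cells. Col4a5 was at 58.5 and 35.6 CPM (log2 0.71, 0.55 to 0.88), with its widest gap in the Pi16-led cluster at 34.9 and 9.46 CPM. Col4a6 was at 12.3 and 7.10 CPM (log2 0.79, 0.42 to 1.18). In MuSC-like cells Col4a6 was at 48.5 and 26.03 CPM (log2 0.90, 0.53 to 1.27), the highest level among the classes in the ATRA+agonist library, and 10 cells held 48.1% and 46.6% of its UMIs. Col4a5 there was at 38.3 and 32.6 CPM (log2 0.23, -0.13 to 0.60).

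Type VI collagen, the microfilament whose loss causes congenital muscle disease, was led by the 3 chains of its main heterotrimer. In FAP-like cells Col6a1 was at 624 and 461 CPM (log2 0.44, 0.39 to 0.49), Col6a2 at 524 and 379 CPM (log2 0.47, 0.41 to 0.52) and Col6a3 at 698 and 553 CPM (log2 0.34, 0.29 to 0.38). These gaps were alike in size and below 1.5-fold. Tenocyte-like cells passed it with Col6a1 at 302 and 179 CPM (log2 0.76, 0.56 to 0.95) and Col6a2 at 223 and 133 CPM (log2 0.75, 0.52 to 0.97). Without the 10 cells of each library with the most collagen UMIs, Col6a1 was at a log2 ratio of 0.58, just short of it. Mural-like cells had Col6a3 at 369 and 249.8 CPM (log2 0.56, 0.34 to 0.79) and Col6a1 at 158 and 147 CPM (log2 0.11, -0.21 to 0.43). In MuSC-like cells Col6a3 was nearly missing, with 3 and 6 UMIs, although Col6a1 was at 73.6 and 66.7 CPM. The alternative type VI chains Col6a5 and Col6a6, neighbours of each other on chromosome 9, were highest in FAP-like cells. Col6a6 was at 107 and 101 CPM, and at 164 and 161 CPM in the Cxcl14-led cluster. Col6a5 was at 4.005 and 12.01 CPM (log2 -1.58, -2.06 to -1.13), the lowest ratio of the class. That gap came from few cells and from single clusters. In the Pi16-led cluster Col6a5 had 6 UMIs against 114, or 2.25 and 53.9 CPM, whereas in the Cxcl14-led cluster it had 42 against 21. Over the class its UMIs lay in 33 of 1297 and 44 of 1590 cells, and a single vehicle cell held 33 of 159.

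Several fibril-associated chains marked single classes, while Col16a1 was present in both glial-like and tenocyte-like cells. Col12a1, which links fibrils in tendon, was at 910 CPM in ATRA+agonist and 853 CPM in vehicle tenocyte-like cells (log2 0.09, -0.01 to 0.20), and its mean level there was 16.5 times that of glial-like cells. As for Col11a1, the interval included 0. In glial-like cells Col12a1 was at 71.2 and 35.6 CPM (log2 1.001, 0.46 to 1.53), and 10 cells held 79.2% of its 53 UMIs in the ATRA+agonist library. Without doublet removal the ratio was 0.43, below 1.5-fold. FAP-like cells had it at 35.7 and 49.0 CPM (log2 -0.46, -0.63 to -0.29). Col22a1, a chain of the muscle-tendon junction, was at 170 and 199.8 CPM in tenocyte-like cells (log2 -0.23, -0.47 to -0.01), in 10.98% and 13.3% of the cells. In FAP-like cells it had 0 UMIs in the ATRA+agonist library, where 3 UMIs of 13234638 would be the limit, and 7 in the vehicle library. Col16a1 was at 96.5 and 60.3 CPM in tenocyte-like cells (log2 0.68, 0.33 to 1.02), below 1.5-fold after thinning (0.36), and at 145 and 178 CPM in glial-like cells. Col14a1, which decorates fibrils in skin and tendon, was highest in FAP-like cells at 314 and 303 CPM (log2 0.05, -0.01 to 0.11). It divided the FAP-like clusters in the order opposite to Col15a1. Col14a1 was at 758 and 677 CPM in the Pi16-led, 454 and 449 CPM in the Gdf10-led and 87.9 and 94.8 CPM in the Cxcl14-led cluster.

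Col19a1 was the collagen most restricted to MuSC-like cells, at 362 and 321 CPM (log2 0.18, 0.06 to 0.29), a mean of 88.5 times the level of the next class. It was among the leading genes of the larger MuSC-like cluster, beside Pax7 and Myf5, although no collagen entered the clustering. In the smaller MuSC-like cluster (64 and 39 cells) Col19a1 was at 859.9 and 530.1 CPM. Col20a1 was the collagen most restricted to glial-like cells, a mean of 35.6 times the level of the next class. It was at 543 CPM in the ATRA+agonist and 966 CPM in the vehicle library (log2 -0.83, -0.99 to -0.68). In ATRA+agonist glial-like cells it had 404 UMIs, beside 429 of Col1a2 and 400 of Col5a2. Col20a1 was low in the larger glial-like cluster, at 184 and 163 CPM (log2 0.17, -0.23 to 0.56), and high in the Csmd3-led one, at 1147 and 1666 CPM (log2 -0.54, -0.71 to -0.37). The latter cluster held 46 of 131 glial-like cells in the ATRA+agonist library and 182 of 391 in the vehicle library, and with both clusters weighted the same the log2 ratio was -0.44. Without doublet removal it was -0.25, so the 1.5-fold call was lost under both. Some Col20a1 was seen in 15.1% and 14.1% of FAP-like cells, at 16.3 and 19.5 CPM, above the 2.12 CPM mean of immune-like cells.

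Network-forming type VIII collagen is known from vessel walls and corneal endothelium. Col8a1 was highest in MuSC-like cells, at 291 and 398 CPM (log2 -0.45, -0.57 to -0.33), and was lower in the ATRA+agonist library in both MuSC-like clusters. FAP-like cells had it at 184 and 206 CPM, and tenocyte-like cells at 229 and 188 CPM. Among endothelial-like cells it was held by the cluster led by Cytl1, Nebl and Sema3g, at 654 and 515 CPM (log2 0.35, 0.13 to 0.56), against 41.3 and 32.3 CPM in the Aqp1-led cluster. Over the class it was at 81.4 and 70.0 CPM (log2 0.22, 0.05 to 0.39), and without the Cd274-led cluster the ratio turned to -0.60. Col8a2 was at 104 and 111 CPM in tenocyte-like cells, 15.5 times the mean level of FAP-like cells.

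Multiplexins are proteoglycans of the outer basement membrane whose released ends, restin and endostatin, are known to act on vessels. Col15a1 was highest in FAP-like cells, at 498 and 342 CPM (log2 0.54, 0.49 to 0.60). It was at 779 and 570.0 CPM in the Cxcl14-led, 245 and 135 CPM in the Gdf10-led and 45.0 and 30.3 CPM in the Pi16-led cluster, and its interval lay above 0 in each. In mural-like cells Col15a1 was at 99.5 and 27.8 CPM (log2 1.84, 1.27 to 2.44), the widest ratio of that class. It rested on 91 and 36 UMIs, in 18.2% and 6.85% of the cells, and was on the same side in pericyte-like cells (99.97 and 34.5 CPM) and smooth muscle-like cells (96.3 and 10.8 CPM). After thinning it was 0.84. FAP markers in mural-like cells summed to 629.6 and 614 CPM, with Dpp4 at 0. Serping1 (380 and 353 CPM) and Gsn (146 and 166 CPM) held most of this sum. The other markers had under 100 UMIs and went both ways, such as Lum at 9.84 and 0.771 CPM and Mfap5 at 9.84 and 26.2 CPM. The part of FAP-marker RNA in the Col15a1 gap was not tested. Col18a1 was highest in glial-like cells, at 257 and 177 CPM (log2 0.53, 0.27 to 0.79), chiefly in the larger glial-like cluster at 344 and 312 CPM.

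Membrane-spanning chains were rare. Col13a1, a chain of the neuromuscular junction and of muscle-tendon contacts, was at 80.5 and 59.6 CPM in tenocyte-like cells (log2 0.43, 0.07 to 0.80), 19.2 times the next class. Col25a1, a chain of muscle needed for motor innervation in development, was at 64.5 and 68.6 CPM in mural-like cells, 4.73 times the next class. In MuSC-like cells it was at 10.5 and 17.7 CPM (log2 -0.76, -1.39 to -0.15), all of it in 4 ATRA+agonist and 11 vehicle cells, and thinning turned the ratio to 0.63. Col23a1 had its highest mean level in FAP-like cells, at 19.9 and 19.6 CPM, 1.29 times that of tenocyte-like cells, which stood above them in the vehicle library. In endothelial-like cells it was at 14.3 and 7.98 CPM (log2 0.84, 0.38 to 1.32), and the cluster led by the lymphatic genes Ccl21a and Mmrn1 held 57 of 104 and 24 of 63 of these UMIs in 23 and 11 cells, at 394 and 400.4 CPM. With all clusters weighted the same the ratio was -0.02, and without the hemoglobin filter it was 0.57. Col9a3 in endothelial-like cells was at 4.81 and 8.74 CPM (log2 -0.86, -1.49 to -0.26), and 48 of its 69 vehicle UMIs were in the Cd274-led cluster, without which the ratio was -0.15. Col26a1 was highest in MuSC-like cells, at 40.4 and 26.03 CPM (log2 0.63, 0.25 to 1.02), and turned to -0.09 after thinning. Col28a1, known from peripheral nerve, was at 40.3 and 34.6 CPM in glial-like cells, on 30 and 69 UMIs, and at 8.52 and 7.10 CPM in endothelial-like cells.

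Across the 34 genes with at least 100 UMIs in the class of their highest mean level, that class was the same in both libraries for 30. It was FAP-like cells for 12 genes, tenocyte-like for 9, glial-like for 5, and mural-like and MuSC-like for 4 each. For 15 of them the level was at least 4-fold that of the next class, 6 of these in tenocyte-like cells (Col8a2, Col11a2, Col12a1, Col13a1, Col22a1 and Col24a1) and 4 in FAP-like cells (Col6a5, Col6a6, Col14a1 and Col15a1). The rest were Col18a1, Col20a1 and Col27a1 in glial-like, Col19a1 in MuSC-like and Col25a1 in mural-like cells. Of all 15, Col6a5 and Col20a1 were past 1.5-fold between libraries in the class they mark, both lower with ATRA+agonist. Among all genes, 4.28% in FAP-like and 6.86% in glial-like cells were lower. As given above, the Col20a1 call was lost with clusters weighted the same and without doublet removal.

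Ratios between chains were compared within trimers, and between types I and III. Type I collagen needs 2 Col1a1 chains for each Col1a2 chain. UMI ratios of different genes also depend on how each RNA is captured, and were not read as ratios of chains. FAP-like cells had 0.597 (0.584 to 0.610) Col1a1 UMIs per Col1a2 UMI in the ATRA+agonist and 0.638 (0.621 to 0.655) in the vehicle library. In tenocyte-like cells the ratio was 0.813 (0.779 to 0.849) and 0.657 (0.629 to 0.687), on intervals that cover counting error alone. As given above, 10 cells held 50% of the ATRA+agonist Col1a1 UMIs there, and without the 10 cells of each library with the most collagen UMIs the log2 ratios of Col1a1 and Col1a2 were 0.89 and 0.79. Col6a1 to Col6a2 stood at 1.19 (1.15 to 1.23) and 1.22 (1.17 to 1.26) in FAP-like cells and at 1.35 and 1.34 in tenocyte-like cells. Col3a1 to Col1a2 was 1.37 and 1.31 in FAP-like cells and 0.203 and 0.125 in tenocyte-like cells.

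The genes that modify, secrete and crosslink collagen were compared over a list of 33, chosen for their roles in the pathway. In FAP-like cells, 1 of 32 compared was at least 1.5-fold higher and 1 lower (2.11% and 4.28% of all genes of the class), with a median log2 ratio of 0.13 beside 0.02 for all genes. Sparc, a collagen-binding secreted protein, was at 1520.4 and 1005 CPM (log2 0.60, 0.57 to 0.63), and Pcolce, which speeds removal of the C-terminal propeptide of fibrillar procollagens, at 598 and 425 CPM (log2 0.49, 0.44 to 0.54). Fkbp14, a prolyl isomerase, had a log2 ratio of 0.44, and the crosslinking oxidase Loxl2 one of 0.37. On the other side stood P4ha1, the catalytic subunit of prolyl 4-hydroxylase, which stabilises the triple helix, at 221 and 344 CPM (log2 -0.64, -0.70 to -0.57). The crosslinking enzyme Lox was at 90.1 and 132 CPM (log2 -0.55, -0.66 to -0.44), P4ha3 at -0.49 and the propeptidase Adamts3 at -0.34. In tenocyte-like cells, 6 of 25 were higher and 0 lower, where 3.85% and 7.13% of all genes were (median 0.33 beside -0.02). Sparc was at 3393 and 1565 CPM (log2 1.12, 1.06 to 1.18), and Pcolce (0.78), Loxl2 (0.78) and Pcolce2 (0.77) followed. Serpinh1, the collagen chaperone HSP47, was at 659 and 429.7 CPM in tenocyte-like cells (log2 0.62) and at 514 and 494 CPM in FAP-like cells (log2 0.06, 0.01 to 0.11). The lowest values in tenocyte-like cells were P4ha1 at 335 and 484 CPM (log2 -0.53, -0.69 to -0.37), the secretion factor Mia2 (-0.36), Loxl3 (-0.26) and Plod3 (-0.11), the last 3 with intervals that included 0. In mural-like cells 2 of 14 genes of the list were higher and 2 lower (3.83% and 6.59% of all genes), and in endothelial-like cells 2 of 19 and 2 (3.93% and 3.08%). In MuSC-like cells 2 of 21 were higher and 3 lower (3.99% and 3.09%), and in glial-like cells 1 of 11 and 0 (4% and 6.86%). P4ha1 was lower in these classes too, at log2 -0.67 in mural-like, -0.53 in MuSC-like, -0.50 in endothelial-like and -0.32 in glial-like cells. The glial-like interval included 0. Sparc was higher in each of them, from 0.23 in MuSC-like to 0.79 in glial-like cells.

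Of 9 collagen receptors, 8 were compared in FAP-like cells and 0 were past 1.5-fold in either direction (2.11% of all genes higher and 4.28% lower). There Mrc2, the endocytic collagen receptor, was at 178 and 151 CPM (log2 0.24, 0.15 to 0.32), and Itga11 (0.16), Itgb1 (0.08) and Ddr2 (0.07) were the next highest. Itga10 (-0.22), the integrin chain Itga1 (-0.19, -0.36 to -0.01), Ddr1 (-0.10) and Itga2 (-0.09) were the lowest. In tenocyte-like cells, 1 of 7 was past 1.5-fold higher and 0 lower (3.85% and 7.13% of all genes): Itga2, a chain of a type I collagen receptor, was at 90.9 and 52.1 CPM (log2 0.80, 0.44 to 1.16). Itga10 was at 43.1 and 61.6 CPM (log2 -0.52, -0.98 to -0.07).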

How the data were processed

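Single-cell suspensions were profiled with 10x Genomics 3-prime chemistry in 2 libraries. Each deposited matrix gives unnormalised UMI counts from Cell Ranger 7.2.0, run by the authors on the mm10 (GRCm38) genome; the annotation release was not given in the sources used here. The extract protocol in the labels describes bulk RNA-Seq and was not used. Barcodes with 300 to 5000 genes, under 20% mitochondrial and under 0.25% Hbb- UMIs were kept, and doublets were removed by a rebuilt DoubletFinder procedure (7.5% expected, 20% artificial). Counts were scaled to 10000 per cell and logged, and 2000 variable genes without collagens gave 30 principal components, 20 neighbours and Louvain clusters at resolution 0.8 (1.6 for pericyte-like and smooth muscle-like cells). Clusters were named from at least 3 markers.

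UMIs were summed per class and library. With 1 library per group no test was made; exact Poisson intervals at 95% were computed for levels, exact conditional intervals for ratios and exact Clopper-Pearson intervals for shares. The interval script was tested on simulated data. Each class names its 5 highest collagen genes, those at least 1.5-fold apart with an interval that leaves out 0 (at most 8), and those at least 4-fold above every other class. For the maturation and receptor lists the 4 highest and 4 lowest ratios are named in FAP-like and tenocyte-like cells. Serpinh1 in FAP-like cells, and further members and cluster values, were added to complete each role after their values were seen. The members, lists and rules were chosen with earlier results of these data known. Alternatives covered doublets, the hemoglobin and gene filters, resolution, collagens in the clustering, marker-based assignment, thinning, free RNA, scaling, cluster weights, the UMI minimum and the fold. Promoter windows came from RefSeq; those of 9 collagen genes, Col1a1 among them, and protein sequences were not used here. Python 3.11.15 was used with numpy 2.4.6, scipy 1.17.1, pandas 2.3.3, scikit-learn 1.9.0, python-igraph 0.11.9 and matplotlib 3.10.9.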

Additional observations from a re-analysis of the deposited data

Results flagged for a closer look

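Barcodes that the quality filters removed, which enter none of the comparisons, still held collagen RNA. In the 3537 removed barcodes of the ATRA+agonist library, collagen genes made up 0.414% (0.410 to 0.419) of the UMIs that were not hemoglobin. In the 10441 removed vehicle barcodes the share was 0.344% (0.341 to 0.347). Hemoglobin held 66.5% and 80.7% of all UMIs of these barcodes. Both collagen shares were above those of immune-like cells in the same libraries.

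Col1a1 differed in direction between classes. Its log2 ratio was 1.37 in tenocyte-like and 0.62 in glial-like cells but -1.08 in MuSC-like cells. With 1 library per group the difference between the classes was not tested. The MuSC-like value rested on 65 and 163 UMIs in 25 and 33 cells, and a single vehicle cell held 53 of them. As given above, the glial-like ratio fell below 1.5-fold with clusters weighted the same and without doublet removal. The tenocyte-like ratio was smaller without the 10 cells of each library with the most collagen UMIs.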

How the results depend on the processing

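No paired analysis was possible because each group has 1 library. Depth limits the genes under 100 UMIs and the classes of few cells. Of 150 summary values under alternatives, 115 stayed close to the reported one, 34 moved and 1 reversed; of 700 values of single genes, 636 stayed close, 58 moved and 6 reversed. The causes of these moves were not tested. The fold of the collagen share was most stable in FAP-like cells, where the log2 ratio was 0.46 with at least 500 genes per cell and 0.42 with median-of-ratios scaling. In tenocyte-like cells it was 0.76 without doublet removal, 0.84 without the hemoglobin filter, 0.67 with each cell classed from its own markers and 0.52 without the 10 cells of each library with the most collagen UMIs. In mural-like cells it was 0.16 without doublet removal and 0.35 without the hemoglobin filter, and in glial-like cells 0.12 without the hemoglobin filter and -0.076 without the 10 cells. In endothelial-like cells it was 0.37 after thinning to 1000 UMIs, 0.24 with median-of-ratios scaling, 0.10 with clusters weighted the same and 0.061 without the cluster led by Cd274 and Gbp4. In MuSC-like cells it reversed to 0.12 after thinning.

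The counts in this paragraph join higher and lower genes. The share of all genes at each setting is not given here, so they were not read against a background. The count of collagen genes past the fold was 1 in FAP-like, 3 in tenocyte-like, 1 in glial-like, 1 in mural-like, 0 in endothelial-like and 1 in MuSC-like cells at a fold of 2. After thinning it was 4 in tenocyte-like, 1 in glial-like, 1 in mural-like, 0 in endothelial-like and 0 in MuSC-like cells. With a minimum of 30 UMIs it was 8 in glial-like, 6 in mural-like and 7 in endothelial-like cells. Without the hemoglobin filter it was 4 in mural-like and 1 in endothelial-like cells. With clusters weighted the same it was 1 in glial-like and 1 in endothelial-like cells; tenocyte-like and mural-like cells have 1 cluster each and gave no such value. In glial-like cells it was 0 without doublet removal and 3 without the 10 cells.

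Among single genes, thinning reversed Col3a1 in mural-like cells (0.54) and Col27a1 (0.59), Col25a1 (0.63) and Col26a1 (-0.093) in MuSC-like cells. In endothelial-like cells Col23a1 reversed with clusters weighted the same (-0.021) and Col8a1 without the Cd274-led cluster (-0.60). Leaving out single clusters or the 10 cells was chosen after seeing the data.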

Other observations

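An unnamed cluster led by Tenm2, Apod and Gpc3 (38 ATRA+agonist and 57 vehicle cells) had the highest Col28a1 level seen, 224 and 124 CPM (log2 0.85, 0.31 to 1.40), and the gene was among those that led the cluster. Its Col3a1 was at 2105 and 968 CPM (log2 1.12, 0.94 to 1.304), and its Col15a1 at 1129 and 787 CPM (log2 0.52, 0.30 to 0.74). Col1a1 in the same cells was at 972 and 933 CPM (log2 0.06, -0.16 to 0.28), so type III RNA differed between the libraries where the interval of Col1a1 included 0. Collagen genes made up 0.873% and 0.657% of the UMIs of this cluster.

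Perineurial-like cells, which form the sheath of nerve bundles, numbered 3 in the ATRA+agonist and 60 in the vehicle library, too few to compare. The vehicle cells had Col1a2 at 476 CPM, Col1a1 at 368.2 CPM, Col3a1 at 272 CPM, Col8a1 at 260.1 CPM and Col4a1 at 219 CPM.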
